A study of Mus musculus with 14 samples.

Results

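The genes described here are 37 nuclear receptors and coregulators of the mouse liver, 33 receptors and 4 coregulators. They were chosen by name, and the symbol of each was found among the 17552 genes of the expression table, so that 37 of 37 were measured. Nuclear receptors are transcription factors that are switched on or off by small fat-soluble molecules such as bile acids, oxysterols, fatty acids, retinoids, thyroid hormone and steroids, or that act with no known ligand. Many bind DNA in pairs with a retinoid X receptor, recruit corepressors such as NCOR1 when no ligand is bound and exchange them for coactivators such as the NCOA proteins when it is. In the liver they set the expression of genes for bile acid and cholesterol handling, fatty acid oxidation, glucose production and the detoxification of foreign compounds.

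Hepatic RNA of male Apoe-deficient mice on the C57BL/6 background (C57BL/6J in the paper), listed at 8 weeks of age, was sequenced after a Western diet without erythrodiol (control, 7 libraries) or with erythrodiol at 10 mg/kg (erythrodiol, 7 libraries). Erythrodiol is a triterpene alcohol found in olives, and the comparison asks how it influences hepatic gene expression in these mice. The labels give 8 weeks on the diet and the paper a longer time. Since the listed age and the listed time on the diet are both 8 weeks, the listed age cannot be taken as the age at sampling. Both groups lacked apolipoprotein E and ate the Western diet, each library was prepared from RNA pooled over 2 or 3 mice, and no group on ordinary chow or with intact Apoe was analysed here.

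For genes the authors deposited 1 expected count per group, the sum over its 7 libraries, with totals of 122889032 for control and 124686047 for erythrodiol. Each gene therefore has 1 value per group, no replicate error can be computed, and no ratio below was tested. The intervals given are exact 95% intervals of the counting error alone. Clean reads per library ranged from 34856340 to 55244294 in the control and from 47669656 to 48058606 in the erythrodiol group. Control libraries contributed between 9.12% and 17.3% of the read pairs mapped to genes in their group, and erythrodiol libraries between 13.9% and 14.6%. Control replicate 3 had the lowest share of reads mapped to genes, 64.3%, against a group median of 75.3%. Apoe, the gene disrupted in both groups, held 9403 and 8293 counts, and which of its exons the reads cover was not analysed here. The summed level of 6 hepatocyte markers was 53565 counts per kilobase per 1000000 counts in the control and 54270 in the erythrodiol group, with Alb alone at 9898790 and 9665610 counts.

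The promoters of 5 receptors are shown because these receptors had the 3 highest and the 2 lowest ratios relative to genes of like length and count, as described below, and because they include the whole NR4A family. The windows are from RefSeq on GRCm38.p6, in the direction of the gene, and run from 250 bases before to 50 bases after an annotated transcript start. RefSeq windows were found for 32 of the 37 genes. The first 3 belong to the NR4A receptors, which are known as immediate early genes that cyclic AMP switches on, and capitals mark TGACG, the core of the cyclic AMP response element, or CGTCA, the same letters on the other strand.
Nr4a1, chr15:101266596-101266895, plus strand: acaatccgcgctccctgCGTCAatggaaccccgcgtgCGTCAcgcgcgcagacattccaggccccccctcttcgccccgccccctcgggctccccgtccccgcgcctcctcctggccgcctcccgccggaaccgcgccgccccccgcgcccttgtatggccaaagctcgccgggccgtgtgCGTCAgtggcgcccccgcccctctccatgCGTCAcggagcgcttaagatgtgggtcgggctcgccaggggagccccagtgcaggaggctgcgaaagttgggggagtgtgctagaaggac
Nr4a2, chr2:57123954-57124253, minus strand: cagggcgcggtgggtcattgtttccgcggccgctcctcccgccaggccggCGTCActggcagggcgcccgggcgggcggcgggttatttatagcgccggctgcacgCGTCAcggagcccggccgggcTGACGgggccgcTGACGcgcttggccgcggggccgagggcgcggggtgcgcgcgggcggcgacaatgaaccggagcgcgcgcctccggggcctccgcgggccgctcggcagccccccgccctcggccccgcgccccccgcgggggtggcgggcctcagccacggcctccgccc
Nr4a3, chr4:48045055-48045354, plus strand: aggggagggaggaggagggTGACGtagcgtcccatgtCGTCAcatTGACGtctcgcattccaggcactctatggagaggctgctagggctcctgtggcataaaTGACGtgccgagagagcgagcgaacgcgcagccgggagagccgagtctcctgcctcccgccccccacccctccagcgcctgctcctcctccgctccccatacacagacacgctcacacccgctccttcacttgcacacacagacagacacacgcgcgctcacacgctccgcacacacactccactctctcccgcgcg
Each of the 3 NR4A windows held 4 matches to TGACG on either strand. At least 1 match was found in 28.6% of the 49 windows of the matched genes and in 20.8% of all 32851 promoter windows. How many matches other windows held was not compared. The Nr4a1 window lies inside the span of the gene in the annotation, at a later start. In the next window, of Nr1i3, capitals mark CACGTG, the E-box, which reads the same on both strands and was found in 7.15% of all windows.
Nr1i3, chr1:171213720-171214019, plus strand: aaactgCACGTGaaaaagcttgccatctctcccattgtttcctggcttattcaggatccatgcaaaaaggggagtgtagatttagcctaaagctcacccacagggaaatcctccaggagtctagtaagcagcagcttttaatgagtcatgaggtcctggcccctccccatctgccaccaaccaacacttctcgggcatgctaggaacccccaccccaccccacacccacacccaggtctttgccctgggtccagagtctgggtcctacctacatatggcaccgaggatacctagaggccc
In the last window, of Nr2f6, capitals mark GGGCGG, the GC box, or CCGCCC on the other strand.
Nr2f6, chr8:71381903-71382202, minus strand: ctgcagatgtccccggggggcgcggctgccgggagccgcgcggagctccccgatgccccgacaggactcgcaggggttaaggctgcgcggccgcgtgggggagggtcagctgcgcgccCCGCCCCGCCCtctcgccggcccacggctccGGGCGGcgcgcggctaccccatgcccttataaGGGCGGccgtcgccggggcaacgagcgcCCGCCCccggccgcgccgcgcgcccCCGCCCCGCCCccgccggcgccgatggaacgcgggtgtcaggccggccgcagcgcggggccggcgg
There were 7 matches in the Nr2f6 window, among them 2 pairs that overlap by 1 base, and a window of Ncoa1 also held 7. At least 1 match was found in 46.9% of the windows of the matched genes and in 35.7% of all windows. The base composition differed between these windows, with 82.7% G or C in Nr2f6, 81.7% in Nr4a2, 72.3% in Nr4a1, 64.7% in Nr4a3 and 54.0% in Nr1i3. The share of G or C averaged 53.8% over all windows and 60.5% over the 49 windows of the matched genes. AGGTCA, the half-site to which many nuclear receptors bind, was searched on both strands in the same way and was found in windows of 9 of the 32 matched genes, namely Nr1h4, Nr5a2, Nr6a1, Pparg, Rara, Rarg, Rxra, Rxrg and Thrb. That is 28.1% of the matched genes, against 18.1% of all 27025 genes with a window. Members have more windows per gene, and by window the shares were 20.4% of their 49 and 16.3% of all 32851. A match is a run of letters and not a measured binding site.

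Levels of different genes were compared as counts per kilobase of gene length per 1000000 counts of the group. By this measure Hnf4a, which keeps hepatocytes in their differentiated state, was the highest at 116 in the control and 135 in the erythrodiol group. Nr1i3, which encodes CAR, a sensor of foreign compounds, followed at 77.7 and 95.7. Rxra, the common partner of many of the other receptors, had 72.0 and 91.9. It was followed by Nr1h4, the bile acid receptor FXR, at 65.8 and 73.3, and by Nr1h3, the oxysterol receptor LXR alpha, at 45.9 and 47.7. These 5 genes held 59.6% of the summed level of all members in the control and 59.8% with erythrodiol. The first 4 kept their order in both groups, whereas Ppara, the fatty acid receptor of hepatocytes, moved from place 7 at 37.9 to place 5 at 54.2. Nr2f6, an orphan receptor that mostly represses, went from place 6 at 40.3 to place 7 at 32.4. At the other end were Nr2f1 at 0.304 and 0.317, Nr4a2 at 0.175 and 0.215, Nr4a3 at 0.149 and 0.127, and Hnf4g, the intestinal relative of Hnf4a, at 0.0827 and 0.0756. With 1 sum per group, no spread is at hand to say which neighbours in this order differ.

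**Figure D1:**
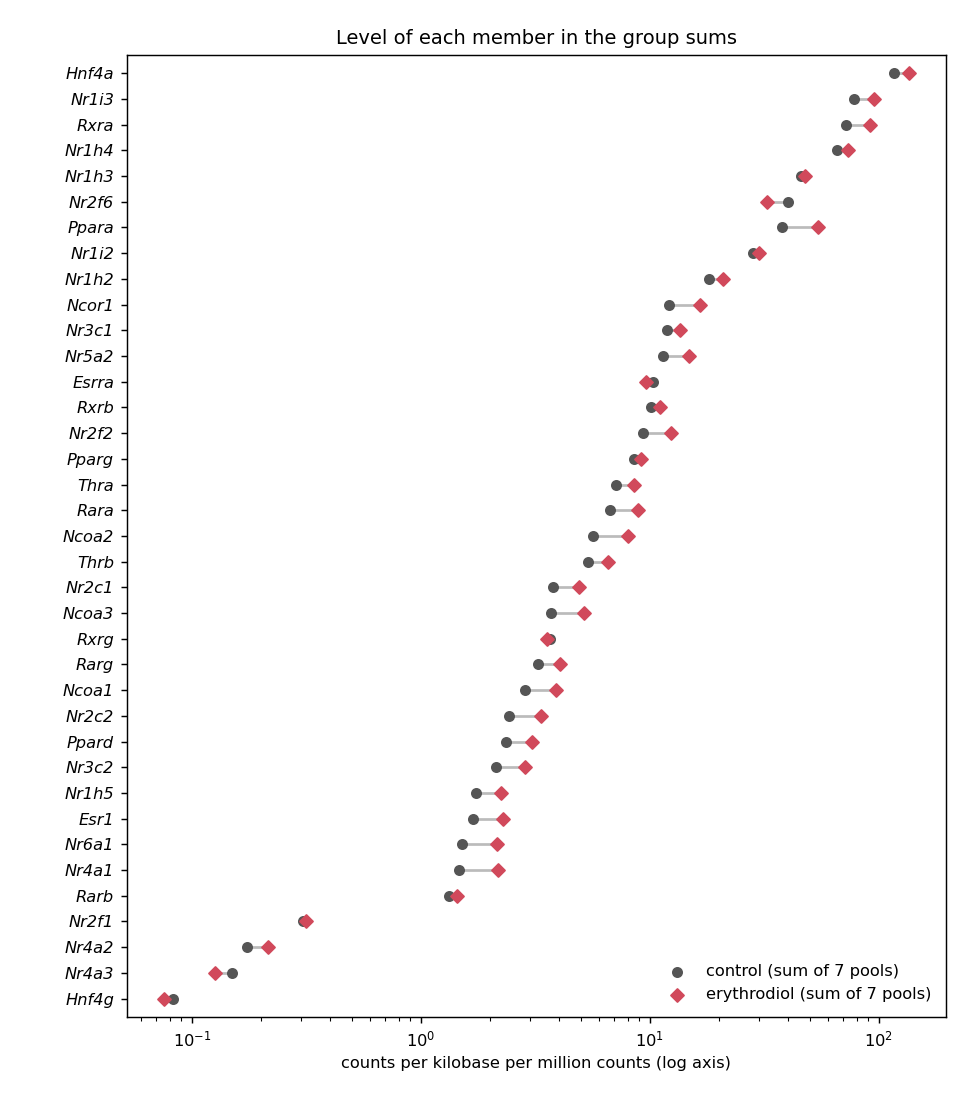
Level of each of the 37 genes in the summed control and erythrodiol libraries, in counts per kilobase per 1000000 counts on a log axis, with a grey line joining the values of a gene. The points span from 0.0756 for Hnf4g to 135 for Hnf4a, and the erythrodiol point lies to the left of the control point for 5 genes.

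Summed over all members, the counts were 277272 in the control and 343242 in the erythrodiol group, a log2 ratio of 0.29 after scaling by the group totals. Of the 37 genes, 36 had at least 100 counts in the groups together and were compared with the 13291 genes that did. Hnf4g, with 41 and 38 counts, did not. The median log2 ratio of the 36 was 0.31, while the median over all 13291 genes was 0.16 rather than 0, and the values of single genes should be read against that shift. Of the 36 members, 32 had a ratio above 0, where 71.2% of all genes did. None of the 36 was past 1.5-fold, where 2.55% of all genes were past it upward and 3.14% downward, so that a count of 0 is near the background. None was past 2-fold either, against 0.218% and 0.549% of all genes. Of the 37 genes, 5 were lower in the erythrodiol sum when scaled by totals, namely Nr2f6, Nr4a3, Esrra, Rxrg and Hnf4g.

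The ratio moved with gene length over the whole table. Over 10 classes of genes of equal number, from the shortest to the longest, the median log2 ratio went from -0.18 to 0.33. The members followed the same line, with a median of 0.14 in the 18 shorter members, which measure between 1549 and 3240 bases, and 0.41 in the 18 longer ones, which measure between 3542 and 8507. Each gene was therefore also set against the 200 genes nearest to it in length and summed count, and its relative log2 ratio is the difference from their median. The median relative log2 ratio of the members was 0.09, and 25 of 36 lay above the genes like them, where 50% of all genes do. On the relative scale none was past 1.5-fold, against 1.29% of all genes upward and 3.14% downward. Only 2 of the 36 lay outside the central 90% of the genes like them, Nr4a1 above and Nr2f6 below, where 11% of all genes did. Nr1h3, Nr1i2, Pparg, Rxrb, Nr3c1, Hnf4a and Thrb had ratios above 0 when scaled by totals and below 0 on the relative scale. Scaled by the median ratio of all genes, Nr1h3, Nr1i2, Pparg, Rxrb, Nr1h4, Rarb and Nr2f1 changed sign and had ratios below 0. The 5 genes that were below 0 by totals stayed below 0 on this scale.

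**Figure D2:**
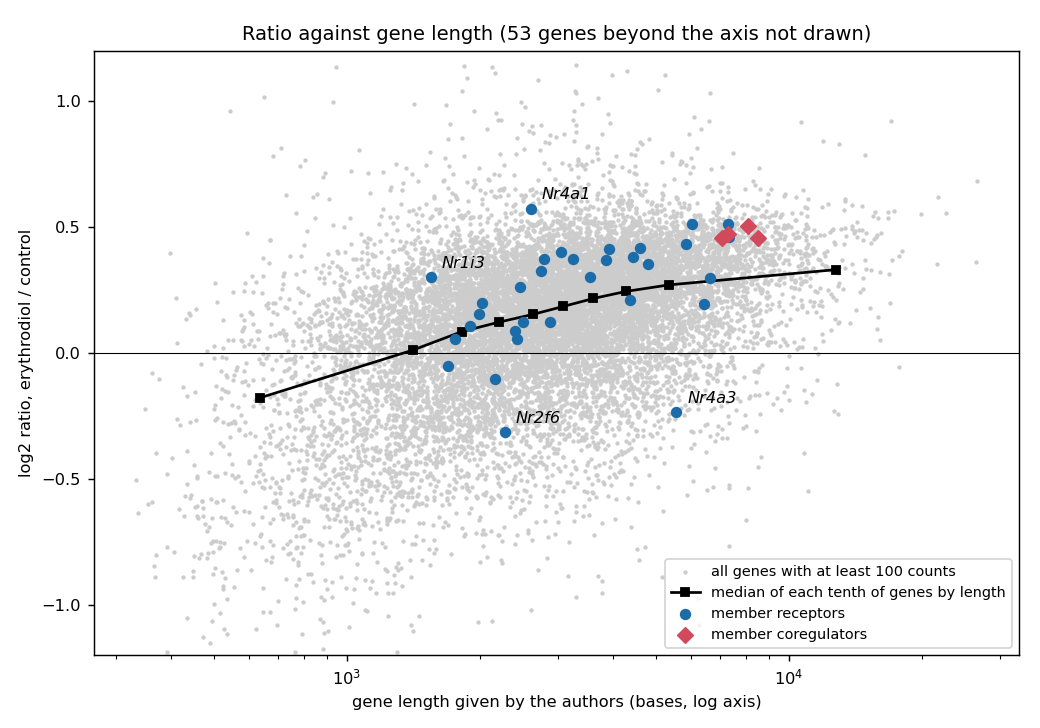
Log2 ratio of erythrodiol to control against gene length in bases on a log axis, for all genes with at least 100 counts (grey), the medians of the 10 length classes (black squares), the member receptors (blue) and the 4 coregulators (red diamonds). The medians climb from -0.18 to 0.33, the coregulators sit at the long end between 0.46 and 0.50, and Nr2f6 and Nr4a3 lie below the line; 53 genes beyond 1.2 on either side are not drawn.

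**Figure D3:**
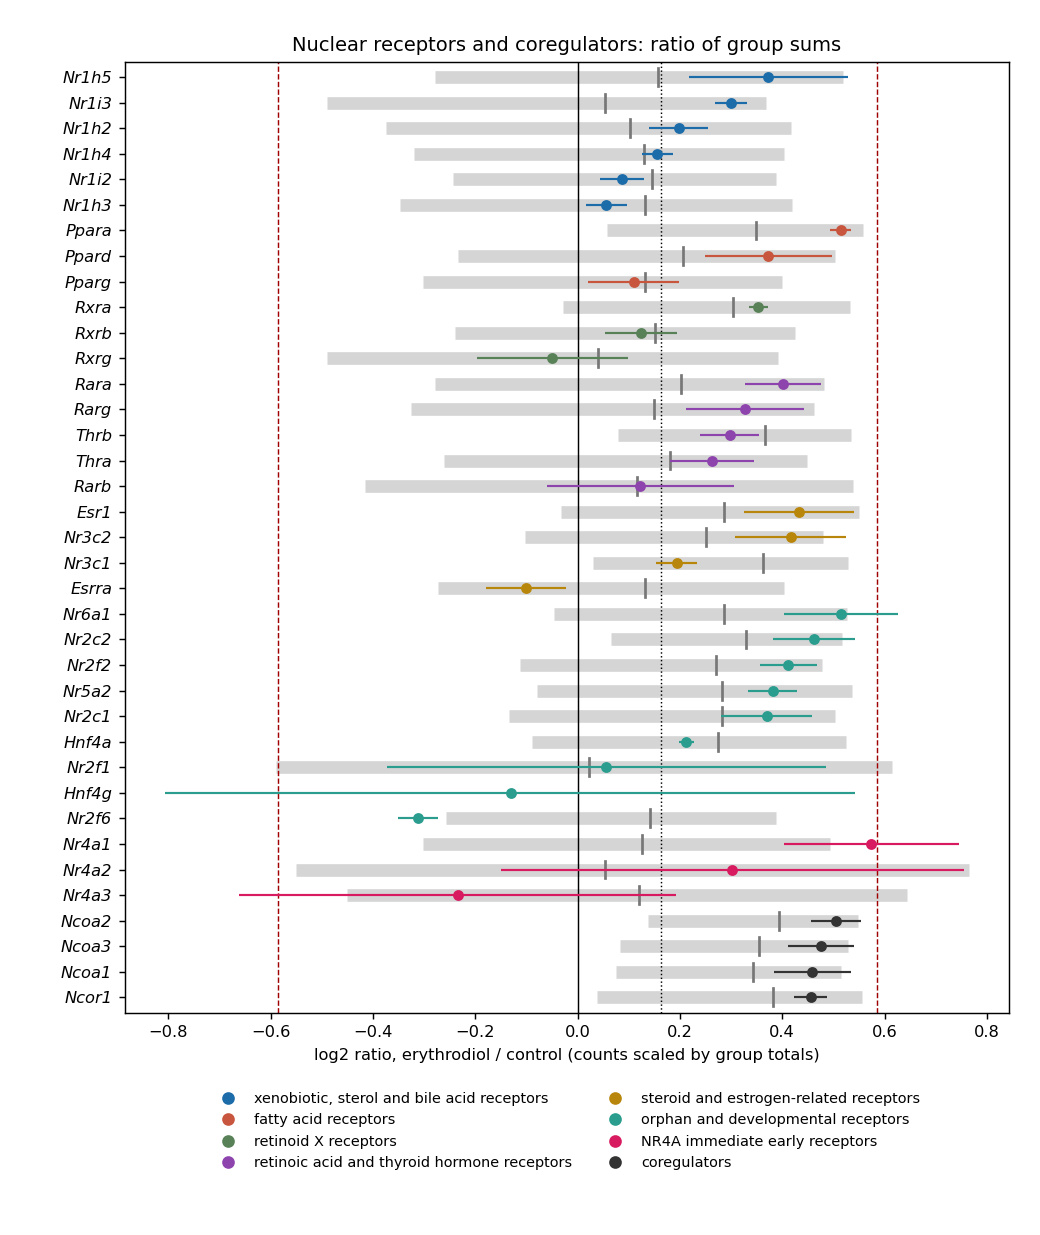
Log2 ratio of each member by role, with the 95% counting interval as a coloured line, the central 90% of the 200 genes of like length and count as a grey bar and their median as a grey tick. The solid line is 0, the dotted line the median of all genes at 0.16 and the dashed lines 1.5-fold; no point passes a dashed line, and Nr4a1 and Nr2f6 are the points outside their grey bars, while Hnf4g has no bar because it was under 100 counts.

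Among the receptors for foreign compounds, sterols and bile acids, 4 of 6 lay above the genes like them. Nr1i3 had 14796 counts in the control and 18491 in the erythrodiol group, a ratio of 1.23 (interval 1.21 to 1.26), log2 0.30. Genes of its short length and high count had a median log2 ratio of 0.05, so that its relative log2 ratio was 0.25, above 89.5% of them. In the GENCODE annotation 3304 of the 4414 exon bases of Nr1i3 also belong to exons of Tomm40l on the opposite strand. Exon bases are taken here over all annotated transcripts of a gene, whereas the length the authors give for Nr1i3 is 1549 bases. The counts of Nr1i3 were not whole numbers, like those of Ncor1, Nr2c2, Rara and Thra, since RSEM can divide reads between genes. Tomm40l, which encodes a mitochondrial import protein, had 7688 and 9994 counts, log2 0.36. The fractions of the 2 genes, 14796.2 and 7687.79 in the control and 18490.9 and 9994.14 with erythrodiol, fill up to whole numbers within rounding. Such fractions arise when reads that match both genes are divided between them, here across strands. The sources used here do not state whether the counting used strand, and reads of the pair cannot be told apart where they overlap. Nr1i2, which encodes PXR, the other sensor of foreign compounds, had 8323 and 8964 counts, with a log2 ratio of 0.09 by totals and -0.06 on the relative scale. Of the summed level of CAR and PXR, CAR held 73.3% in the control and 76.2% in the erythrodiol group.

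The bile acid and oxysterol receptors had relative log2 ratios between -0.08 and 0.21. Nr1h4 had 16134 and 18240 counts, log2 0.16, with a relative log2 ratio of 0.03. Nr1h5, the lanosterol-binding relative of FXR, was far lower at 597 and 784 counts, log2 0.37 and relative 0.21, and held 2.57% and 2.98% of the summed level of the 2 receptors. Nr1h3 had 9934 and 10477 counts, log2 0.06 and relative -0.08, whereas Nr1h2, the widely expressed LXR beta, had 4517 and 5255 counts, log2 0.20 and relative 0.09. Nr1h3 is known to be used by hepatocytes and by Kupffer cells, the macrophages of the liver. The summed level of 6 Kupffer cell markers was 423 in the control and 261 in the erythrodiol group, a ratio of 0.616, with 6 of 6 lower and none at 0. Its part in the Nr1h3 value was not tested, and in whole liver fewer cells of a type and less RNA per cell cannot be told apart.

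The fatty acid receptors differed in level more than in ratio. Ppara, which switches on fatty acid oxidation, had 34011 and 49275 counts, a ratio of 1.43 (interval 1.41 to 1.45) and a log2 ratio of 0.51. Genes of its length, 7293 bases, and its count had a median of 0.35 and a central 90% from 0.06 to 0.56, so that Ppara at a relative 0.17 lay within them and above 89.5%. Ppard, the widely expressed member, had 941 and 1236 counts with a relative log2 ratio of 0.17. Pparg, the receptor that drives fat storage, had 1988 and 2176 counts, log2 0.11 by totals and -0.02 on the relative scale. Ppara held 77.7% of the summed PPAR level in the control and 81.6% with erythrodiol, and Pparg 17.4% and 13.8%.

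Of the retinoid X receptors, the shared partners, Rxra held 83.9% of the summed level in the control and 86.3% in the erythrodiol group. Its counts were 42475 and 55055, a ratio of 1.28 (interval 1.26 to 1.29), log2 0.35 against 0.30 in genes like it. Rxrb had 3113 and 3443 counts, log2 0.12 by totals and -0.03 relative. Rxrg, the least of the 3, had 765 and 750 counts and a relative log2 ratio of -0.09, and the interval of its ratio, 0.873 to 1.07, held 1.

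The retinoic acid and thyroid hormone receptors had log2 ratios between 0.12 and 0.40, and 4 of 5 lay above the genes like them. Rara, the main retinoic acid receptor of this liver by level, had 2519 and 3376 counts, log2 0.40 and relative 0.20. Rarg followed with 1098 and 1397 counts, log2 0.33 and relative 0.18. Rarb, itself a known target of retinoic acid, had 468 and 517 counts, log2 0.12 and relative 0.01, with an interval of the ratio from 0.959 to 1.24. Of its 5265 exon bases, 1793 are shared with Top2b on the opposite strand, which had 5378 and 6047 counts. Thra and Thrb, the 2 thyroid hormone receptors, had relative log2 ratios of 0.08 and -0.07. Their shares of the summed level were 57.1% and 42.9% in the control and 56.5% and 43.5% in the erythrodiol group. Thra shares 263 of its 4614 exon bases with Nr1d1 on the opposite strand, which had 15749 and 19829 counts.

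Among the steroid and estrogen-related receptors, 2 of 4 lay above the genes like them. Nr3c1, the glucocorticoid receptor, had 9360 and 10864 counts, log2 0.19. Genes of its length, 6428 bases, and its count had a median of 0.36, so its relative log2 ratio was -0.17, above 16.5% of them. Nr3c2, the mineralocorticoid receptor, had 1208 and 1636 counts, log2 0.42 and relative 0.17, and Esr1, the estrogen receptor alpha, had 1211 and 1658, log2 0.43 and relative 0.15. Esrra, an orphan receptor that drives mitochondrial genes, went the other way at 2736 and 2587 counts, a ratio of 0.932 (interval 0.883 to 0.984), log2 -0.10 and relative -0.23, above 14.0% of the genes like it.

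The orphan and developmental receptors held the lowest value of all. Nr2f6 had 11293 counts in the control and 9229 in the erythrodiol group, a ratio of 0.805 (interval 0.784 to 0.828), log2 -0.31. Genes like it had a median of 0.14 and a central 90% from -0.26 to 0.39, so that Nr2f6 at a relative -0.45 lay below that range and above 3.5% of them. In the annotation 1622 of its 2983 exon bases are shared with Ocel1 on the opposite strand, which had 623 and 615 counts, log2 -0.04. The related Nr2f2, COUP-TFII, had 4492 and 6064 counts, log2 0.41 and relative 0.14. Within the summed COUP-TF level, Nr2f6 held 80.7% in the control and 71.8% in the erythrodiol group, and Nr2f2 18.7% and 27.5%. This was the largest difference in share among the 13 families compared. Nr2f1, COUP-TFI, was scarce at 91 and 96 counts.

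Hnf4a had 62610 and 73612 counts, a ratio of 1.16 (interval 1.15 to 1.17), with a log2 ratio of 0.21 by totals and -0.06 relative to genes like it. Nr5a2, which encodes LRH-1, a regulator of bile acid synthesis, had 6241 and 8247 counts, log2 0.38 and relative 0.10. Nr6a1, the germ cell nuclear factor, had 1119 and 1622 counts, log2 0.51, above 94.5% of the genes like it and still within their central 90%. Nr2c1 and Nr2c2, the testicular receptors, had relative log2 ratios of 0.09 and 0.13, and Nr2c2 shares 4590 of its 14935 exon bases with Mrps25 on the opposite strand.

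The NR4A receptors, which respond within minutes to hormones and stress, were all scarce. Nr4a1 had 468 counts in the control and 707 in the erythrodiol group, a ratio of 1.49 (interval 1.32 to 1.68), and its log2 ratio of 0.57 was the highest of all members. Genes like it had a median of 0.13 and a 95th percentile of 0.49, so that Nr4a1, at a relative 0.45, lay above 97.5% of them. Nr4a2 had 76 and 95 counts, log2 0.30 and relative 0.25, and Nr4a3 had 102 and 88 counts, log2 -0.23 and relative -0.35. At these counts the intervals of the ratio, 0.902 to 1.69 for Nr4a2 and 0.632 to 1.14 for Nr4a3, both held 1, so that a difference of either was not detectable at this depth.

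The 4 coregulators had nearly equal ratios. Ncoa2 had 5619 and 8089 counts, log2 0.50. Ncoa3 had 3327 and 4691, log2 0.47, and Ncoa1 had 2467 and 3440, log2 0.46. These 3 are histone acetyltransferase-recruiting coactivators of the p160 family, and their shares of the summed p160 level moved by less than 1 percentage point between the groups. Ncor1, the corepressor that brings histone deacetylase to receptors without ligand, had 12623 and 17559 counts, log2 0.46. The 4 genes are between 7051 and 8507 bases long and their relative log2 ratios were 0.12 for Ncoa3, 0.12 for Ncoa1, 0.11 for Ncoa2 and 0.07 for Ncor1, so each lay above the median of genes like it and inside their central 90%.

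Other genes of the same pathways were described from lists chosen, like the members, with earlier results of these data known. Of 16 other receptors of the family, 8 had at least 100 counts, 5 had fewer and 3 had no row. None of the 8 was past 1.5-fold, with a median log2 ratio of 0.31 and a relative median of 0.00. The highest was Nr0b2, which encodes SHP, the repressor of bile acid synthesis, with 3976 and 5344 counts, log2 0.41 and relative 0.44, above 98.5% of the genes like it. Esrrb, the estrogen-related receptor beta, was the lowest with 78 and 80 counts, log2 0.02 and relative -0.05. None of 15 other coactivators was past 1.5-fold, from Ncoa7 at log2 -0.16 with 402 and 366 counts to Ep300, a histone acetyltransferase, at 0.54 with 4463 and 6601, and their relative median was 0.08. Of 8 other corepressors none was past it either, with Tbl1xr1 the lowest at log2 0.18 and a relative median of 0.03.

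Target genes of the receptors showed a few larger ratios. Of 13 targets of CAR and PXR, 3 were past 1.5-fold upward and none downward, where 2.55% and 3.14% of all genes were, and their median log2 ratio was 0.17. On the relative scale 1 of the 13 was past it upward, Cyp2b10, where 1.29% of all genes were, while Alas1 at 0.48 and Por at 0.42 were not. Alas1 and Por each lay above 99.5% of the genes like them. Of the 13, 4 lay outside the central 90% of the genes like them in either direction, where 11% of all genes did. Cyp2b10, the classic target of CAR, had 43.2 counts in the control and 134 in the erythrodiol group, a ratio of 3.06 (interval 2.16 to 4.44). It has close relatives in the Cyp2b cluster, so that its counts depend on how RSEM divided shared reads. Its relatives Cyp2b9 and Cyp2b13, which the paper lists as lower with erythrodiol, are not among the 13. In the paper RT-qPCR on single mice gave a smaller rise of Cyp2b10, called significant, with a wide spread between mice. Alas1, the first enzyme of heme synthesis, had 26953 and 44015 counts, a ratio of 1.61, and Por, the electron donor of cytochrome P450 enzymes, had 23187 and 36205, a ratio of 1.54. Cyp3a11, the classic target of PXR, had 431019 and 404688 counts, a ratio of 0.925.

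Of 15 targets of PPAR alpha, 1 was past 1.5-fold upward and 0 downward, where 2.55% and 3.14% of all genes were. Their median log2 ratio was 0.21 with a relative median of 0.03. The 1 past it was Fgf21, the fasting hormone of the liver, with 1207 and 2695 counts, a ratio of 2.20 (interval 2.06 to 2.36). Plin2, a coat protein of lipid droplets, was the lowest with 82728 and 67069 counts, log2 -0.32. Of 11 targets of LXR, 1 was past 1.5-fold upward and 0 downward, against the same shares of all genes. Of the 11, 8 lay below the genes like them, where 50% of all genes lie above, with a relative median of -0.17. Cyp7a1, the rate-limiting enzyme of bile acid synthesis, had 11875 and 28636 counts, a ratio of 2.38 (interval 2.33 to 2.43), and it is also known to answer to FXR through SHP and to LRH-1.

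None of 7 targets of FXR with at least 100 counts was past 1.5-fold. They ranged from Slc27a5, a bile acid ligase, at log2 -0.20 to Cyp8b1, which makes cholic acid, at 0.46. Slc51b, under that minimum with 56 and 34 counts, had a ratio of 0.598 (interval 0.379 to 0.933), past 1.5-fold downward. Slc51a had no row. Of 11 targets of the glucocorticoid receptor, 2 were past 1.5-fold upward and 1 downward, with a relative median of 0.22, where 2.55% and 3.14% of all genes were. They were Per1, a clock gene, with 2363 and 3820 counts and a ratio of 1.59, Pck1, which commits carbon to glucose production, with 109728 and 174872 counts and a ratio of 1.57, and Mt2, a metallothionein, with 3630 and 1936 counts and a ratio of 0.526. Mt2 is short, and relative to genes like it its log2 ratio was -0.59 in place of -0.93, still past 1.5-fold. Per1 at a relative 0.38 and Pck1 at 0.51 were not past it on that scale, yet each lay above 99.5% of the genes like it. Of the 11, 6 lay outside the central 90% of the genes like them in either direction, where 11% of all genes did. None of 6 targets of the thyroid hormone receptors was past 1.5-fold, from Dio1, the deiodinase, at log2 -0.31 to Me1, malic enzyme, at 0.47. Of 5 retinoic acid receptor targets with at least 100 counts, 1 was past it upward and 0 downward (of all genes, 2.55% and 3.14%). It was Cyp26b1, which breaks down retinoic acid, with 538 and 984 counts and a ratio of 1.80, while Cyp26a1 had 234 and 219.

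None of 9 targets of HNF4 alpha was past 1.5-fold, and the lowest was Otc, a urea cycle enzyme, at log2 -0.31. None of 6 enzymes that make or remove receptor ligands and had at least 100 counts was past it. They ranged from Hsd11b1, which regenerates glucocorticoid, at log2 -0.44 with 78504 and 58562 counts to Cyp27a1, which makes an oxysterol, at 0.26.

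**Figure D4:**
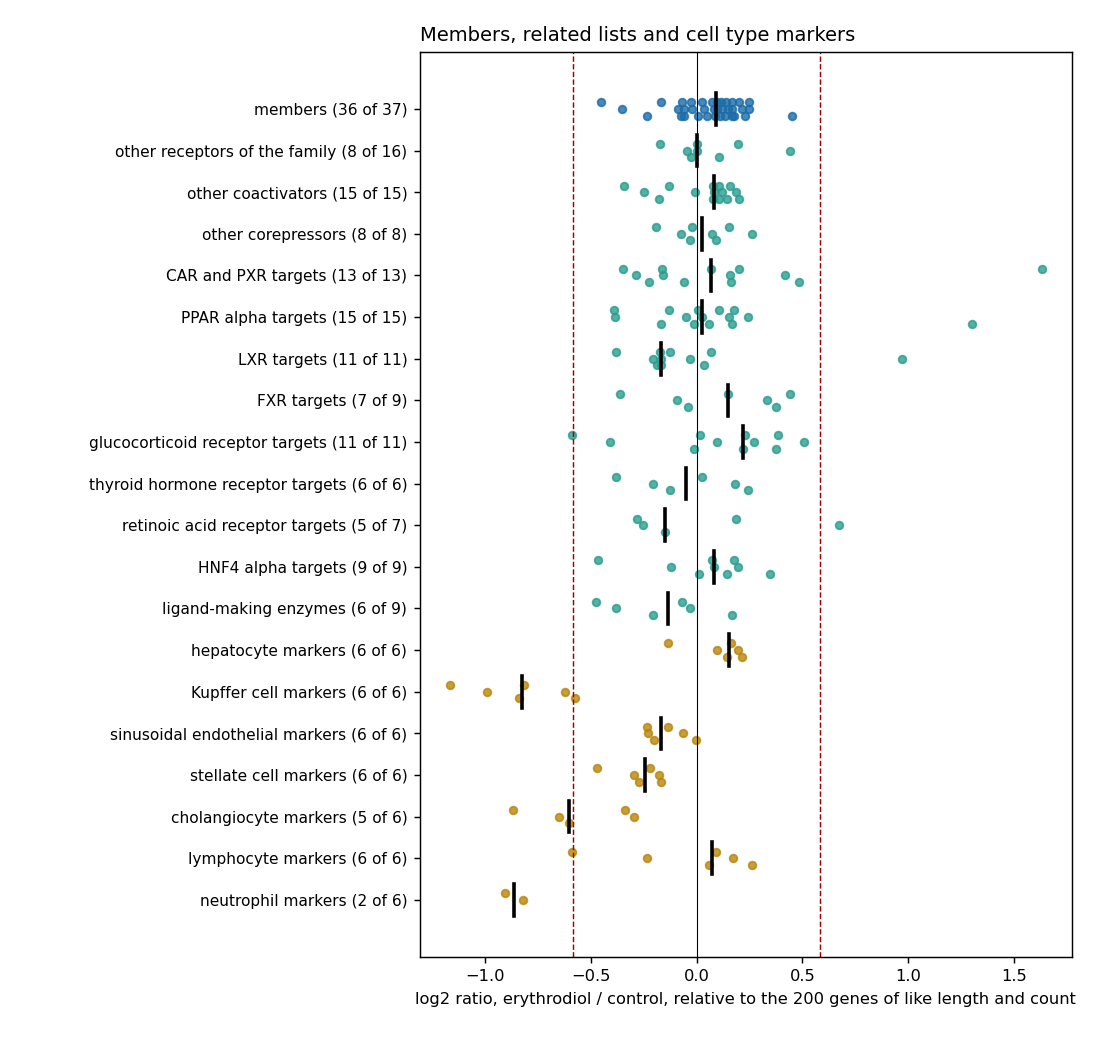
Log2 ratio relative to the 200 genes of like length and count for the members, the related lists and the cell type markers, with 1 point per gene, a black bar at each median and dashed lines at 1.5-fold. In brackets is the number of genes with at least 100 counts of those listed; the members spread from -0.45 to 0.45 around a median of 0.09, whereas the 6 Kupffer cell markers have a median of -0.83.

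Markers of other liver cells did not all keep the same level in the 2 sums. The ratio of the summed level was 0.952 for sinusoidal endothelial markers, with 2 of 6 lower, 0.911 for stellate cell markers, with 3 of 6 lower, and 0.926 for lymphocyte markers, with 2 of 6 lower. It was 0.666 for cholangiocyte markers, with 6 of 6 lower, and 0.466 for neutrophil markers, with 5 of 6 lower, of which S100a8 and S100a9 alone had at least 100 counts. In the lymphocyte sum Ptprc alone held 5.38 of 9.21 in the control and 4.47 of 8.53 with erythrodiol. The lower lymphocyte sum therefore rested mainly on Ptprc, and 4 of 6 lymphocyte markers were higher. In the same order, Spp1 held 71.2 of 77.1 and 46.9 of 51.4 in the cholangiocyte sum. Dcn held 142 of 168 and 126 of 153 in the stellate cell sum. Clec4g held 33.8 of 59.7 and 28.3 of 56.8 in the endothelial sum. No marker of any list was at 0. By totals, 71.2% of all genes had a ratio above 0. On the relative scale 6 of 6 endothelial and 6 of 6 stellate cell markers lay below the genes like them, with medians of -0.17 and -0.25. So did 2 of 6 lymphocyte markers, and 5 of 5 cholangiocyte and 2 of 2 neutrophil markers with at least 100 counts, where 50% of all genes lie above. The part of these cells in the members' values was not tested.

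Transcript models assembled by the authors from the pooled reads, and judged coding by them, added structure to 15 of the 37 genes, with 51 transcripts in all. Of the members with at least 100 counts, 41.7% had such a transcript, against 35.8% of all genes and 42.2% of the genes like them. Ncor1 alone had 22 of them, with 45 to 48 exons each, on chromosome 11 from 62315663 to at most 62457806. Of these, 8 share an intron absent from the GENCODE annotation, from 62330925 to 62334019. Nr2c2 followed with 5 transcripts and 5 such introns. Nr1i3 had 2, with 3 such introns of between 113 and 285 bases. These models carry no group, and how many reads of either group they took was not analysed here.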

How the data were processed

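Liver RNA of 14 libraries, 7 control and 7 erythrodiol, was analysed, grouped by the labels. Libraries were selected for poly-A and read from both ends on a BGISEQ-500. Per the paper's methods and the submitters' processing notes, the authors assembled transcripts with HISAT, StringTie and Cufflinks, merged new coding ones with the reference and counted reads on them with Bowtie2 and RSEM; versions are not given in the sources used here. The authors deposited 1 expected count per gene and group, which was kept unrounded. The deposited table also holds the authors' own log2 ratio, p-value and q-value, which were not used. The authors deposited per library a count of clean reads and the percent of them mapped to genes.

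Log2 ratios were computed after scaling by the column totals, without a pseudocount, with exact conditional binomial (Clopper-Pearson) intervals at 95% that cover counting error only. Rows with no gene symbol, 0.0248% of all counts, stayed in the totals. Genes of like length and count were the 200 nearest in log2 length and log2 summed count, each divided by its standard deviation, among genes with at least 100 counts. Named genes were those past 1.5-fold, the 5 highest and 5 lowest members by relative log2 ratio, the 5 highest by level and, for each other list, those past 1.5-fold or else the highest and lowest, of which 2 are not reported here. The other members are accounted for with the values of their role. Overlaps of exons were taken from GENCODE M21, over all annotated transcripts of each gene. The members and lists were chosen with earlier results of these data known. No test, p-value or paired fit was possible at the gene level. The computation was tested on simulated data. Alternatives were other scalings, minimum counts, fold limits, numbers of like genes and a pseudocount of 1. Tools were scipy 1.17.1 and numpy 2.4.6 under Python 3.11.15, with pandas 2.3.3 for tables and matplotlib 3.10.9 for figures.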

Additional observations from a re-analysis of the deposited data

Results flagged for a closer look

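The share of clean reads mapped to genes was 64.3% in control replicate 3, apart from the other 6 control libraries, with a group median of 75.3%. Its gap to the nearest library was 0.588 of the range of the group. It was the only one among 8 groups of values checked, of which chance marks about 5%. This library gave 9.12% of the mapped read pairs of its group. Its part in the ratios of the members was not tested, because genes were given as sums.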

How the results depend on the processing

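No member was past 1.5-fold in either direction when scaled by totals, by the median ratio of all genes or against like genes, with a minimum of 10 counts or none, or with a pseudocount of 1, nor past 2-fold. The median log2 ratio of the members, 0.31, became 0.15 when scaled by the median ratio of all genes and 0.15 by the upper quartile of counts, since these scalings take out the shift of all genes. It was 0.30 with a minimum of 10 counts and 0.30 with none, 0.31 with a pseudocount of 1 and 0.36 with a minimum of 1000 counts. The relative median, 0.09, was 0.077 with the 50 nearest genes, 0.10 with the 1000 nearest and 0.12 by length alone. Between 22 and 26 members lay above the genes like them, with 22 of 32 at a minimum of 1000 counts. The latter counts and the minimum of 1000 were added after seeing the data. The sign changed for 7 of 36 members under scaling by the median of all genes and for 7 on the relative scale. No paired analysis was possible because genes have 1 sum per group, and leaving out a library was not possible for the same reason. Depth limits Hnf4g, Nr2f1, Nr4a2, Nr4a3, Rarb and Rxrg, whose counting intervals held a ratio of 1. Error between mice cannot be computed.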
